A study of Mus musculus with 24 samples.

Results

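The tRNA genes of mouse mtDNA were examined by bisulfite sequencing, cytosine by cytosine and strand by strand. They were chosen by position alone, as all listed cytosines that lie inside the 22 tRNA genes of the reference (build mm10, chrM), and no measured value entered the choice. 19 of the 22 genes held listed cytosines, and the other 3 were not analysed here. The members are 428 of the 5829 listed cytosines of mtDNA, 240 of 3890 on the light (L) strand and 188 of 1939 on the heavy (H) strand.

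The 24 libraries were made by PBAT (post-bisulfite adapter tagging): bisulfite first converts unmodified cytosines to uracil, and adaptors are joined to the DNA afterwards. Mitochondrial nucleic acid was purified from wild-type E14 embryonic stem cells (ESCs, 3 preparations, grown on mouse feeder fibroblasts), from brain and from liver of C57BL/6J mice (2 preparations each), and a PCR copy of C57BL/6J mtDNA that carries no 5-methylcytosine (5mC), called synthetic mtDNA, was the control (1 preparation). Native mtDNA had been cut open with BglII, and all samples were spiked with λDNA, which was not analysed here. The preparations E1, E2, B1, L1 and S1 (E for ESC, B for brain, L for liver, S for synthetic) were treated for 5, 15, 40 and 60 min, E3 for 60 and 90 min, and B2 and L2 for 60 min. The age of the mice and the number of animals per preparation were not given in the sources used here. The paper also lists purchased livers of ICR mice without naming the experiment that used them, and does not name the strain of the PCR template. The measurement is the unconversion rate, the percentage of reads covering a cytosine in which it was read as cytosine. The deposited values appear to include reads in which nearly all cytosines were unconverted. The authors saw such reads on the L strand of native and synthetic mtDNA and left them out of their rates. Without them, they reported nearly complete conversion of the L and H strands after 60 min, so the L-strand rates given here are not comparable with theirs. Rates were used where at least 10 reads covered the cytosine, and the rate of a gene or region is the mean over such cytosines, so it rests on the cytosines that still had reads. Differences were tested over preparations, of which 8 had a library of 60 min. B2 was the shallowest at 60 min, with 44 covered L-strand cytosines in tRNA genes against 113 to 158 in the other 7 libraries, and results that change without it are named as such.

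Transfer RNAs are the adaptors that carry amino acids to the ribosome, and those for translation inside mitochondria are encoded by mtDNA itself. The genes are short, lie between the protein and ribosomal RNA genes, and are cut out of long transcripts that run around the circle from either strand. A tRNA gene is called L-sense here where the tRNA has the sequence of the L strand and H-sense where it has the sequence of the H strand. 5mC, where present, resists bisulfite, but so does an unmodified cytosine in DNA that was not single-stranded during the reaction. The authors raised another possible origin of the unconverted L-strand reads: a second round of copying, on products of the H strand, during library synthesis. Such reads would align to the L strand, and a guanine of the H strand would count as an unconverted cytosine. This was not tested here.

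The sequences on which the results turn are given first, from the RefSeq copy of the reference (GRCm38), 5′ to 3′. The first group is the L strand of the genes whose cytosines stayed unconverted after 60 min, with the deepest covered gene, mt-Tg, beside them. Capitals mark the cytosines with a mean unconversion rate of 10% or more over the 60 min preparations that covered them.
mt-Tg (tRNA for glycine, chrM:9391-9458): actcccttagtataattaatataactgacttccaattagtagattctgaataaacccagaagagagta
mt-Tm (tRNA for methionine, chrM:3845-3913): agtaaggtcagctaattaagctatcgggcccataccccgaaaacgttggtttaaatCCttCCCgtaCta
mt-Th (tRNA for histidine, chrM:11546-11612): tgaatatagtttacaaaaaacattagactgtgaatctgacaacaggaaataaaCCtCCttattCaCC
mt-Te (tRNA for glutamic acid, chrM:14071-14139): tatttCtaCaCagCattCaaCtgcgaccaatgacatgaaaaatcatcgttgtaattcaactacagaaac

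The capitals sit at the end of mt-Tm and mt-Th and at the start of mt-Te, and no cytosine of mt-Tg has one. Small letters include cytosines without a value. In mt-Te only 6 of 16 listed cytosines were covered, all of them capitals, and in mt-Tm 14 of 18 were covered. mt-Te is H-sense, so the printed L strand is the reverse complement of its tRNA, while the other 3 genes are L-sense. The next group is the L strand of genes that differed after 5 min, when conversion was incomplete everywhere. Here capitals mark cytosines with a mean rate of 80% or more over the 5 min preparations that covered them.
mt-Td (tRNA for aspartic acid, chrM:6942-7011): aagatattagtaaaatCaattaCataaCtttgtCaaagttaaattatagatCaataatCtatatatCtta
mt-Tp (tRNA for proline, chrM:15356-15422): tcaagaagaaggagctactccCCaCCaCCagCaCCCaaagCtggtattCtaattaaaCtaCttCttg
mt-Ty (tRNA for tyrosine, chrM:5260-5326): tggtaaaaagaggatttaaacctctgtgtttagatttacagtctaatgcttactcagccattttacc

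All 7 listed cytosines of mt-Td and 15 of the 20 of mt-Tp, of which 17 were covered, are capitals, against none of the 12 of mt-Ty. The last sequence is the H strand of mt-Ta, whose capital, at nt 5050, is the cytosine that stood highest on average on that strand of the tRNA genes at 60 min, counting those covered in all 8 preparations.
mt-Ta (tRNA for alanine, chrM:5018-5086, H strand): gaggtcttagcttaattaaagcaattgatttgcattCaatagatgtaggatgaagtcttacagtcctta

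After 60 min, the L strand of the tRNA genes was unconverted far less often than the L strand elsewhere in mtDNA. The mean rate of the tRNA genes was 4.97% in E1, 6.13% in E2, 4.74% in E3, 5.11% in B1, 7.04% in B2, 4.35% in L1, 4.07% in L2 and 6.82% in S1. Every other listed L-strand cytosine together gave between 30.3 and 42.6% in the same libraries, so the ranges did not overlap. The difference was -28.1 ± 3.55 percentage points (SD, n = 8), negative in 8 of 8 preparations (exact two-sided sign-flip permutation test, p = 0.00781, the smallest that 8 preparations allow). Against the protein genes, which averaged 40.8 ± 4.75%, the difference was -35.4 ± 4.50 points (exact permutation test, adjusted p = 0.0156 over 6 comparisons). The control region, the noncoding stretch where replication starts, averaged 15.3 ± 6.26%, and the tRNA genes were lower by -9.88 ± 5.69 points (exact permutation test, adjusted p = 0.0156). That last difference was -4.37 points and did not pass the test (exact permutation test, adjusted p = 0.206) when cytosines needed 20 reads. The L strand of the rRNA genes was the region nearest to the tRNA genes, with 6.01 ± 0.87%, a difference of -0.61 ± 1.35 points in which 3 of 8 preparations were positive (exact permutation test, adjusted p = 0.227). Its sign was positive with a minimum of 20 or 30 reads, and it passed the test at -1.79 points over the cytosines covered in all 8 libraries (exact permutation test, adjusted p = 0.0117).

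**Figure D1:**
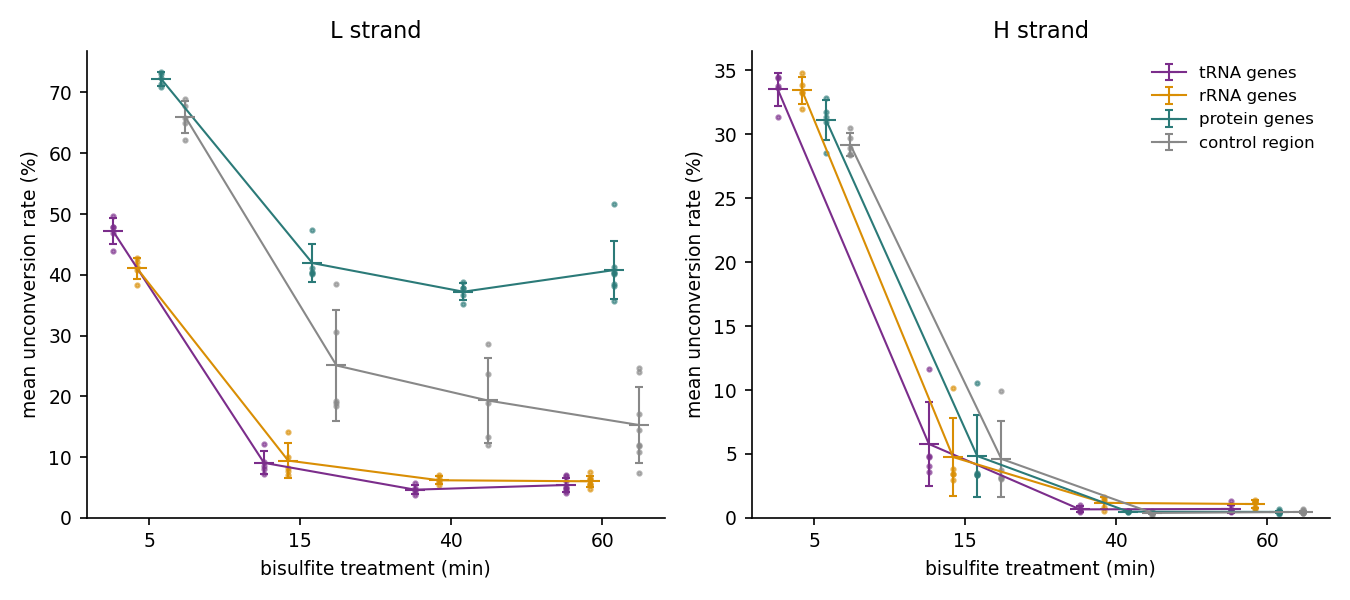
Mean unconversion rate (%, y axis) of the tRNA genes, rRNA genes, protein genes and control region by minutes of bisulfite treatment (x axis, durations evenly spaced and regions set side by side), with 1 point per library and the mean ± SD over preparations as a dash with bars (n = 5 at 5, 15 and 40 min, n = 8 at 60 min). On the L strand (left) the tRNA genes run with the rRNA genes, at 5.40% after 60 min, while the protein genes stay at 40.8%; on the H strand (right) all 4 regions fall to about 1% or below.

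The low mean hid a small group of cytosines. Of the 240 L-strand cytosines in tRNA genes, 170 were covered in at least 1 preparation at 60 min, 43 in all 8 and 70 in none. Coverage was thinner than elsewhere: per library, 18.3 to 65.8% of those listed were covered, against 31.6 to 79.5% outside tRNA genes. The typical library had a median of 9.25 reads per listed cytosine, against 16 outside. On the H strand these medians were 108.5 and 266.5 reads. Averaged over the preparations that covered it, the rate was under 5% at 145 of the 170, between 5 and 10% at 2, and 10% or more at 23. Those 23 fell into 5 genes: 7 in mt-Th, 6 in mt-Tm, 6 in mt-Te, 2 in mt-Tl2 and 2 in mt-Tk. Neighbouring cytosines can lie on the same reads, so they are not independent: in L2 all 7 of mt-Th had 10%, at a median of 50 reads. The 2 in mt-Tk (tRNA for lysine) were covered in S1 alone, by 10 reads each with 1 unconverted. Of all covered L-strand cytosines outside tRNA genes, 19.9 to 37.5% per library had a rate of 90% or more, against 1.77 to 6.82% of those inside tRNA genes.

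mt-Te was the tRNA gene with the highest L-strand rate, and nearly all reads that covered it were unconverted. Its mean was 96.9% in E1, 96.7% in E2, 100% in E3, B1, L1 and L2, 99.0% in B2 and 98.8% in S1. Native and synthetic mtDNA overlapped, and the mean over 8 preparations was 98.9 ± 1.40%. Only 2 or 3 of its 16 listed cytosines were covered in native libraries and 6 in S1, all within nt 14076 to 14091, the end next to mt-Nd6 (subunit of complex I). The 100 nt of mt-Nd6 before the gene had 99.5 ± 0.37% and the 100 nt after it, mostly in mt-Cytb (cytochrome b), had 96.8 ± 3.22% (SD, n = 8). The high value of mt-Te was thus not set off from its neighbours, and its rate had been 99.7 ± 0.46% after 5 min (SD, n = 5).

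mt-Th changed from low to intermediate rates along its length, and for mt-Tm a low part was covered in S1 alone. The 6 cytosines of mt-Tm at nt 3901 to 3911 had a mean of 18.3% in E1, 41.3% in E2, 18.4% in E3, 14.3% in B1, 4.18% in L1, 15.8% in L2 and 8.35% in S1, and B2 did not cover them. The 6 cytosines ran from 40.0 to 42.9% in E2 and from 3.40 to 6.70% in L1, and most widely in L2, from 12.9 to 20.6%. Between libraries they spread about the mean of 17.2 ± 11.8% (SD, n = 7). Another 8 cytosines of mt-Tm, at nt 3873 to 3888, were covered in S1 alone and had 0% there, at a median of 12 reads. In the 100 nt after mt-Tm, inside mt-Nd2 (subunit of complex I), the mean was 29.5 ± 7.23% (SD, n = 8).

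In mt-Th the 7 cytosines at nt 11599 to 11612 had a mean of 17.2% in E1, 29.3% in E2, 18.4% in E3, 35.8% in B1, 20.5% in L1, 10% in L2 and 30.5% in S1. S1 lay inside the range of the 6 native preparations with a value. The other 6 covered cytosines of the gene, at nt 11559 to 11588, had 0.69 ± 1.18% (SD, n = 7), with 0% in 5 of 7 preparations and 2.58% at most. The lower part of the gene thus differed from its end in every preparation that covered both. On the far side of the low part, the last 100 nt of mt-Nd4 (subunit of complex I) had 43.8 ± 7.37% (SD, n = 8). Over all covered cytosines mt-Th had 9.27% in E1, 16.8% in E2, 9.89% in E3, 20.5% in B1, 11.0% in L1, 5.38% in L2 and 16.4% in S1. For mt-Tm the gene mean equalled that of its end in the 6 native preparations and was 3.58% in S1. The order of mt-Tm and mt-Th was not resolved, since their gene means of 16.5 ± 12.5% and 12.7 ± 5.27% (SD, n = 7) differed by less than either spread.

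**Figure D2:**
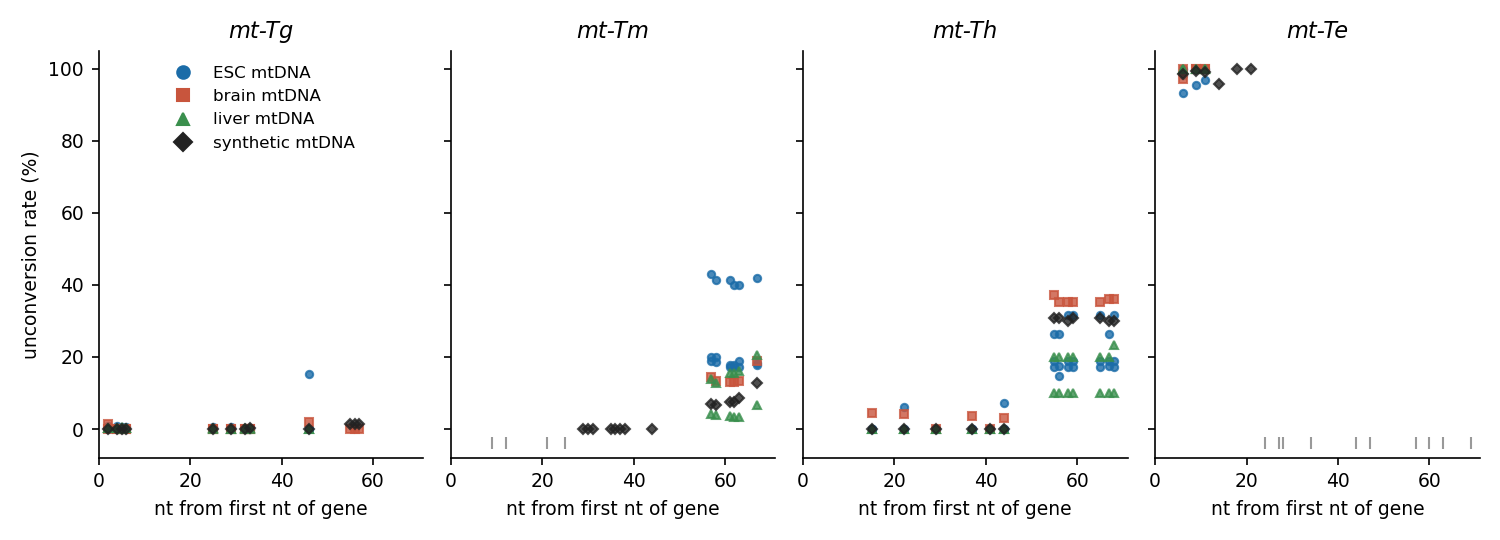
Unconversion rate (%, y axis) of single L-strand cytosines after 60 min against their distance in nt from the first position of the gene (x axis) in mt-Tg, mt-Tm, mt-Th and mt-Te, with 1 symbol per preparation that covered the cytosine with at least 10 reads. Grey ticks under 0 mark listed cytosines covered in no preparation; the rates of mt-Th run from 0.69% in the lower part to 23.1% at its end, and those of mt-Te stand at 98.9%.

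mt-Tl2 (a tRNA for leucine) and mt-Tr (tRNA for arginine) complete the 5 highest genes, both on thin coverage. mt-Tl2 had a value in S1 alone, from 2 neighbouring cytosines with 10 of 12 reads unconverted at each, 83.3% (95% Wilson interval, 55.2 to 95.3%, for counting error only). mt-Tr had 3.03% in both B1 and S1, the only libraries that covered any of its 6 cytosines. mt-Tk, next in the order, had 0% in B1 and 3.33% in S1 and no value elsewhere.

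At the other end, 8 genes had mean L-strand rates between 0.09 and 0.79%, each covered in 7 or 8 preparations. The 5 lowest genes were mt-Ti (tRNA for isoleucine) at 0% in the 3 libraries with a value (E3, B1 and S1), mt-Tw (tryptophan) at 0.09 ± 0.11%, mt-Tc (cysteine) at 0.21 ± 0.25%, mt-Ta (alanine) at 0.23 ± 0.40% and mt-Tn (asparagine) at 0.28 ± 0.49%. These neighbours in the order did not differ beyond their spread. In mt-Tw the rate was 0% in E1, E3 and L1, 0.08% in E2, 0.07% in B1, 0.29% in L2 and 0.18% in S1. mt-Tc had 0.35% in E1, 0.64% in E2, 0.12% in B1, 0.46% in L2, 0.07% in S1 and 0% in E3, B2 and L1. mt-Ta reached 1% in L1 and 0.59% in E1 and was 0% in E2, E3, B1, L2 and S1. mt-Tn was 0% in E1, E2, B1, L1 and S1, and 1.09% in E3 and 0.89% in L2. Together with mt-Ty, at 0.79 ± 0.74%, the genes mt-Tw, mt-Ta, mt-Tn and mt-Tc form the cluster around the site where L-strand replication begins, and every gene of that cluster had a mean under 1%.

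mt-Tg was the deepest covered tRNA gene on the L strand, with a median coverage of 74.5 to 2587 reads per cytosine over the 60 min libraries, and had 0.44 ± 0.72%. In 7 of 8 preparations its mean lay between 0.06 and 0.41%. E1 stood apart at 2.20%, to which 1 cytosine (nt 9436) with 2 of 13 reads unconverted added most. The other 8 covered cytosines of E1 had 0.40 to 0.70%, at 410 to 470 reads each. With calls summed over the cytosines of the gene, E1 had 25 of 3569 unconverted, 0.70%, against 0.07 to 0.25% in the other 7 libraries. A read gives a call at each cytosine it covers, so the 25 calls can come from far fewer reads. E1 was the highest on both measures, which are not independent. mt-Tf (phenylalanine) and mt-Tv (valine), which flank the 12S rRNA gene, had 0.31 ± 0.33% and 0.29 ± 0.28% (SD, n = 8 each). Coverage sets how low a rate can be seen: 3 unconverted reads at the median coverage of the covered tRNA cytosines correspond to 3.97 to 18.8% for the L strand and 0.98 to 6.00% for the H strand, so rates below these were not resolved for a single cytosine.

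**Figure D3:**
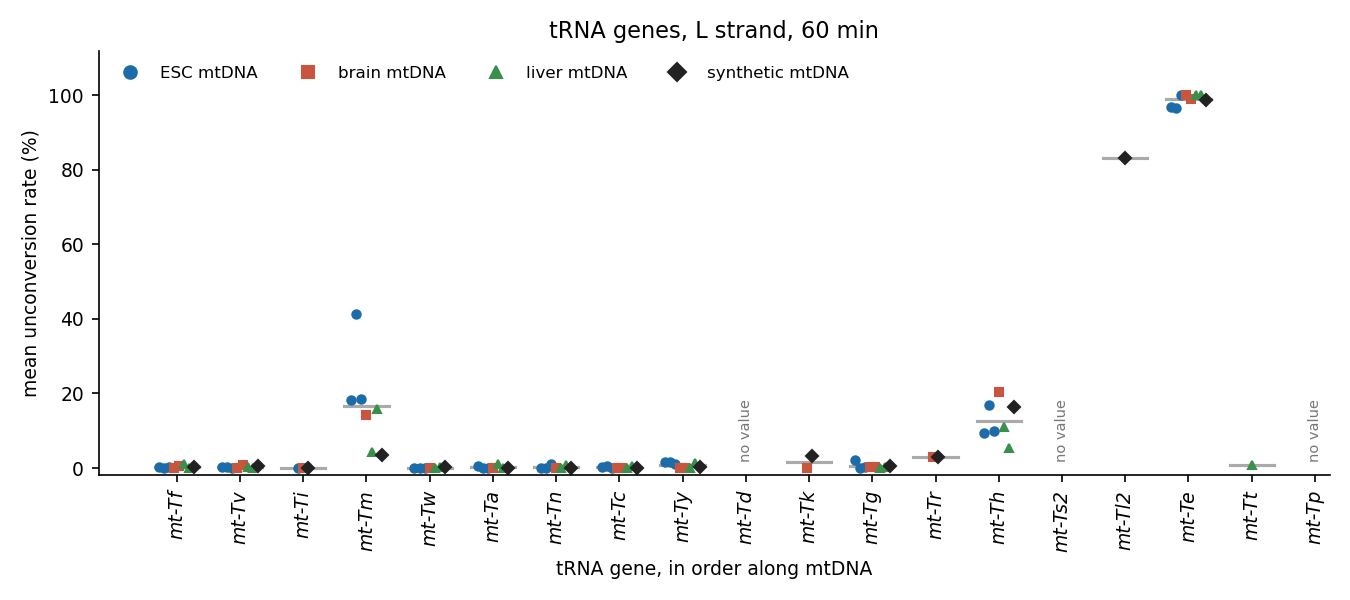
Mean L-strand unconversion rate (%, y axis) of each tRNA gene after 60 min, with genes in order along mtDNA (x axis), 1 symbol per preparation and a grey bar for the mean over the preparations with a value. mt-Te stands near 99%, mt-Tm and mt-Th spread between 3.58 and 41.3%, mt-Tl2 has a value in synthetic mtDNA alone, and mt-Td, mt-Ts2 and mt-Tp have none.

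mt-Td, mt-Ts2 (a tRNA for serine) and mt-Tp had no covered L-strand cytosine in any 60 min library, and mt-Tt (threonine) had one in L2 alone. For mt-Td and mt-Tp reads were present after 5 min and fell under the minimum by 60 min. mt-Td had a median coverage of 52.0 to 110.0 reads after 5 min, with rates of 90.7% in E1, 98.9% in E2, 90.7% in B1, 95.3% in L1 and 88.5% in S1. Counted at each cytosine and added up, its L-strand reads after 60 min were 0.0107 to 0.0846 times those after 5 min. The ratio over the whole L strand was 0.338 to 1.25. mt-Tp had 89.2% in E1, 80.1% in E2, 90.2% in B1, 94.9% in L1 and 100% in S1 after 5 min, and its reads fell to between 0 and 0.129 times. mt-Tk had a lower rate after 5 min, 49.7 ± 2.03% (SD, n = 5), and its reads fell to between 0.00666 and 0.197 times. These 3 genes lay below the ratio of the whole L strand in every one of the 5 preparations, and so did mt-Ty and mt-Th, with median ratios of 0.220 and 0.236 at lower rates after 5 min, 31.5 ± 1.80% and 37.0 ± 1.75%. mt-Te, at 99.7%, had a median ratio of 0.432. mt-Tw, mt-Ta and mt-Tg gained reads in all 5 preparations, with median ratios of 3.81, 2.01 and 1.78.

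Cytosines that lost their coverage were those with high rates early on. Of the L-strand tRNA cytosines covered after 5 min in a preparation, 19.1 to 32.7% were no longer covered after 60 min. Outside tRNA genes the share was 17.6 to 40.7%, so the loss was not particular to them. After 5 min the lost tRNA cytosines had averaged 80.7 ± 8.68% and the kept ones 35.6 ± 1.53% (SD, n = 5), and the lost ones were higher in 5 of 5 preparations. For L-strand cytosines outside tRNA genes the same values were 82.0 ± 4.41% and 61.8 ± 1.38%. Whether this loss set the low L-strand mean of the tRNA genes after 60 min was not tested. Across the 15 tRNA genes with a rate after 5 min, that rate and the median ratio of reads had a Spearman correlation of -0.60 and a Pearson correlation of -0.53, given as a description, since the genes share libraries and each gene holds between 7 and 20 listed cytosines.

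**Figure D4:**
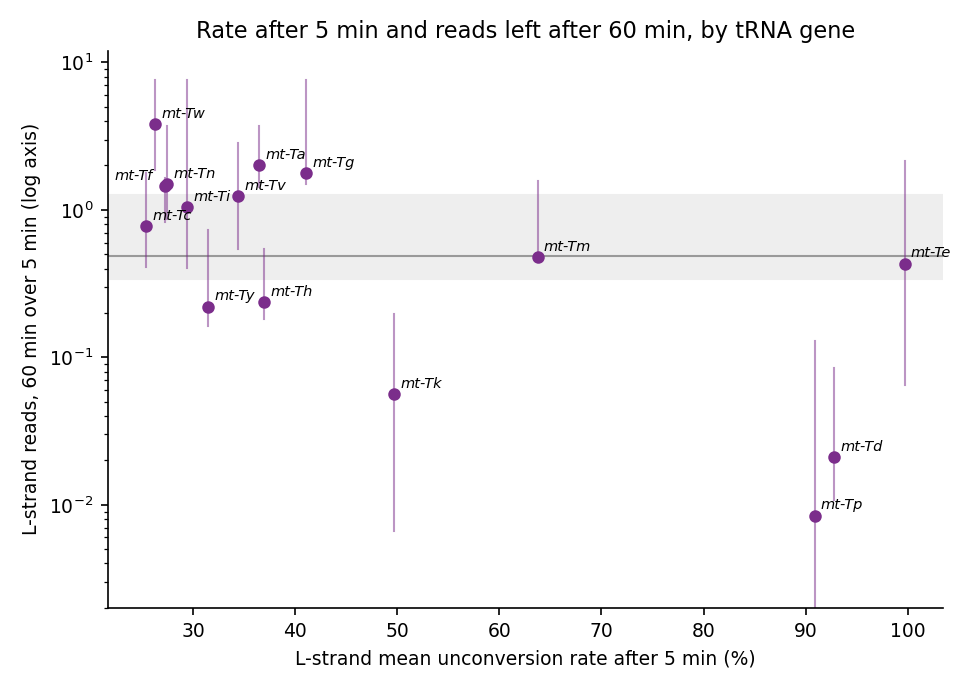
Ratio of L-strand reads after 60 min to those after 5 min (y axis, log scale) against the mean L-strand unconversion rate after 5 min (%, x axis) for the 15 tRNA genes with a rate at 5 min. Points are medians over 5 preparations, vertical lines run from the lowest to the highest preparation (that of mt-Tp runs off the axis to 0), and the grey band and line give the range and median of the whole L strand, 0.338 to 1.25 and 0.483; mt-Td, mt-Tp and mt-Tk lie furthest under the band.

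The course of conversion differed between the strands of the tRNA genes. On the L strand the mean rate fell from 47.2 ± 2.11% at 5 min to 9.05 ± 1.90% at 15 min and 4.63 ± 0.76% at 40 min (SD, n = 5 each), and was 5.40 ± 1.12% at 60 min (n = 8). The H strand had 33.5 ± 1.27%, 5.78 ± 3.31%, 0.66 ± 0.23% and 0.69 ± 0.29% at the same times. At 15 min E1 stood apart on the H strand with 11.6%, against 4.05 to 4.87% in the other native preparations. The rest of the H strand of the same library was high too, at 10.4% against 3.35 to 3.54%. The tRNA genes were already below the rest of the L strand after 5 min, by -20.8 ± 1.81 points, and were so after 15 min (-26.8 ± 1.62 points) and 40 min (-26.2 ± 1.97 points), in 5 of 5 preparations each time (exact permutation test, p = 0.0625 each, the smallest that 5 preparations allow). After 5 min the tRNA genes were 6.16 ± 3.15 points above the rRNA genes on the L strand in 5 of 5 preparations, and after 60 min they were not.

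After 60 min the L strand of the tRNA genes exceeded the H strand by 4.71 ± 1.09 points, in 8 of 8 preparations (exact permutation test, p = 0.00781). On the H strand the tRNA genes had 0.55% in E1, 0.49% in E2, 0.56% in E3, 0.55% in B1, 1.29% in B2, 1.01% in L1, 0.59% in L2 and 0.52% in S1. B2 and L1 were the highest, and S1 lay inside the native range. The mean of 0.69 ± 0.29% differed from the rest of the H strand by 0.12 ± 0.23 points, with 5 of 8 preparations positive (exact permutation test, p = 0.227). It was above that of the protein genes by 0.23 ± 0.20 points in 8 of 8 preparations (exact permutation test, adjusted p = 0.0156), and by 0.10 points, which did not pass, with reads pooled over cytosines (exact permutation test, adjusted p = 0.0703). It was below that of the rRNA genes by -0.38 ± 0.32 points in 7 of 8 preparations (exact permutation test, adjusted p = 0.0234). Relative to the control region it was higher by 0.23 ± 0.32 points in 7 of 8 (exact permutation test, adjusted p = 0.0281). The last of these did not pass without E1, E2, B1, B2, L1 or S1, and without B2 it was 0.14 points.

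Among the H-strand tRNA cytosines covered in all 8 preparations, a single one, nt 5050, stood above the others, and it did so in synthetic mtDNA too. Of those covered in fewer preparations, 1 had a mean of 10% or more. At nt 5050 in mt-Ta the rate was 11.7% in E1, 7% in E2, 10.6% in E3, 12.7% in B1, 5.70% in B2, 14.8% in L1, 7.80% in L2 and 8.10% in S1, at 35 to 307 reads. In S1 25 of 307 reads were unconverted, for which the 95% Wilson interval is 5.58 to 11.7% (counting error only), and the native preparations lay on both sides of S1. Its mean of 9.80 ± 3.14% was the only one of 5% or more among the 157 H-strand tRNA cytosines covered in all 8 preparations, of which 31 had a mean of 1% or more and 6 were at 0% in all. After 5 min its mean had been 47.8%. Next came nt 3718 in mt-Ti, with 3.20% in E1, 0.80% in B1, 8% in B2, 8.20% in L1, 1.10% in L2 and 0% in E2, E3 and S1, a mean of 2.66 ± 3.52%. At nt 5022 in mt-Ta the rate was 1.40% in B1, 12.5% in B2, 4.50% in L1, 0.70% in S1 and 0% in E1, E2, E3 and L2, a mean of 2.39 ± 4.36%. B2 and L1 were the highest at both, and the 12.5% of B2 was 2 of 16 reads.

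By gene, mt-Ta had the highest H-strand mean, 2.03 ± 0.92%, followed by mt-Tf at 1.84 ± 2.68% and mt-Ti at 1.42 ± 1.25% (SD, n = 8 each). These neighbours did not differ beyond their spread. mt-Ta had 1.67% in E1, 0.87% in E2, 2% in E3, 1.91% in B1, 3.70% in B2, 3.07% in L1, 1.37% in L2 and 1.62% in S1. In mt-Tf the values were 6.08% in B1, 5.55% in L1 and 3.08% in S1 and 0% in the other 5 libraries, and its median coverage was only 1 to 8 reads, with 1 to 5 of 11 cytosines covered. mt-Ti had 1.04% in E1, 1.14% in E2, 0.69% in E3, 0.40% in B1, 3.59% in B2, 3.19% in L1, 0.88% in L2 and 0.41% in S1, so B2 and L1 stood above the other 6. The remaining 16 genes had H-strand means between 0.31 and 0.98%. The lowest of them was mt-Te, at 0.31 ± 0.06%, the same gene whose L strand was nearly unconverted, and its values lay between 0.21 and 0.38% in all 8 preparations.

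**Figure D5:**
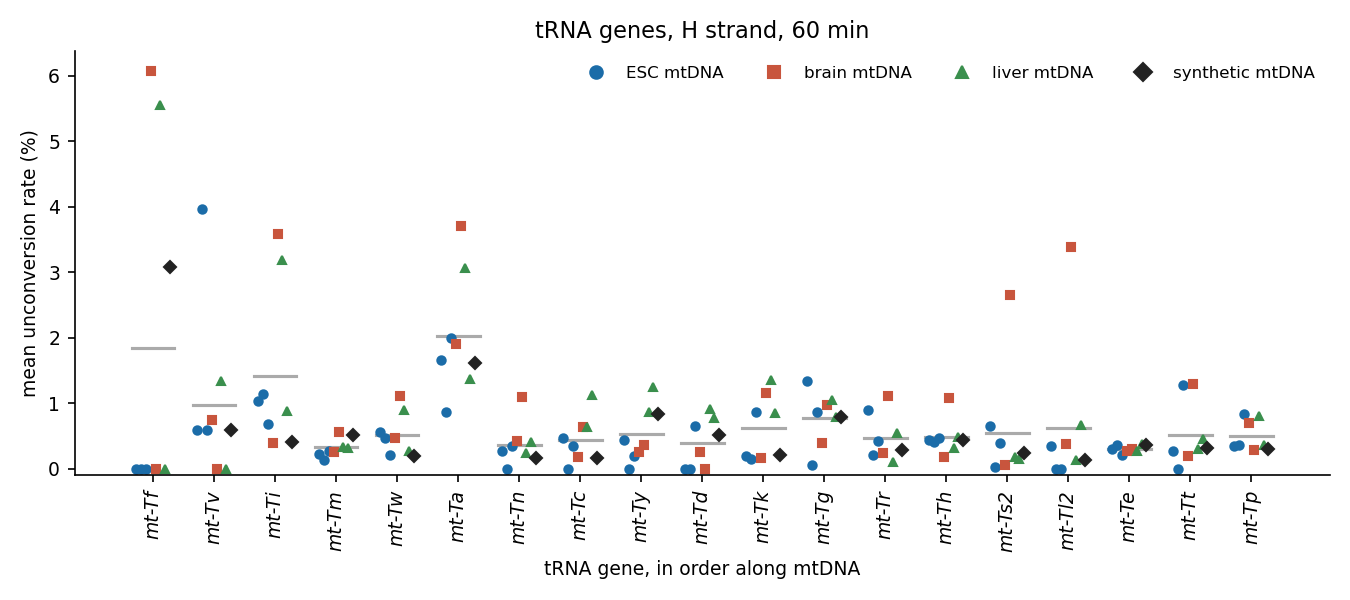
Mean H-strand unconversion rate (%, y axis) of each tRNA gene after 60 min, with genes in order along mtDNA (x axis), 1 symbol per preparation and a grey bar for the mean over preparations. All but a few values are under 2%, mt-Ta has the highest mean at 2.03%, and several of the highest single values are from B2.

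By the sense of the tRNA, the strands gave no common pattern. On the L strand the L-sense genes averaged 3.83 ± 2.01% and the H-sense genes 7.45 ± 3.36%, a difference of -3.62 ± 4.93 points with 1 of 8 preparations positive (exact permutation test, p = 0.0469). The call was lost when any of 7 of the 8 preparations was left out, and the difference was -2.09 points without B2. mt-Te decided this value: without it, an alternative chosen after seeing the data, the difference was 3.47 points in the other direction (exact permutation test, p = 0.00781). On the H strand the difference was 0.01 ± 0.24 points (exact permutation test, p = 0.945).

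CG is the sequence in which 5mC is found most often in nuclear DNA, whereas CH stands for a cytosine followed by any other base. The tRNA genes held 13 listed CG and 227 CH cytosines on the L strand and 13 and 175 on the H strand. CG cytosines of the H strand averaged 0.35 ± 0.17% and CH cytosines 0.72 ± 0.31%, so that CG was lower by -0.38 ± 0.32 points in 7 of 8 preparations (exact permutation test, p = 0.0156). The L-strand means were 3.57 ± 3.18% and 5.49 ± 1.19%, a difference of -1.91 ± 3.64 points with 3 of 8 preparations positive (exact permutation test, p = 0.203). The sign of this L-strand difference turned with a higher coverage minimum, with pooling of reads and without cytosines of 50% or more in synthetic mtDNA.

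Native and synthetic mtDNA were compared because 5mC, if present, would leave cytosines unconverted in native mtDNA only. The native L-strand mean over tRNA genes was 5.20 ± 1.04% (SD, n = 7) and synthetic mtDNA had 6.82%, so native mtDNA differed by -1.61 points and 1 of 7 preparations exceeded synthetic mtDNA (exact permutation test, p = 0.25; a comparison of 7 with 1 cannot go below 0.125). Synthetic mtDNA had more covered cytosines, 158 against 44 to 131, and over the 43 cytosines covered in all 8 libraries the difference was 0.16 points. On the H strand the native mean was 0.72 ± 0.31% against 0.52%, a difference of 0.20 points with 6 of 7 above it (exact permutation test, p = 0.5).

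Gene by gene, 6 tRNA genes had an L-strand value in all 8 libraries, and in none of them did all 7 native preparations lie above, or all below, synthetic mtDNA. Of the 123 windows of 68 nt that cover mtDNA and had a value in all 8, the shares were 18.7% above and 4.07% below. On the H strand all native preparations lay above synthetic mtDNA in 1 of 19 genes, mt-Tw, and below it in none, beside 4.87% and 6.19% of 226 windows. In mt-Tw the native range was 0.21 to 1.11% and S1 had 0.20%.

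Single cytosines were tested with edgeR's quasi-likelihood test on unconverted and converted reads, fitted over mtDNA as a whole with Benjamini-Hochberg adjustment. Cytosines with no unconverted or no converted read in the libraries compared were left out of it. The alternatives named below kept them and so tested more cytosines. The lone synthetic library was assumed to vary like the native ones, so a lack of calls against it does not show that rates were equal. Between native and synthetic mtDNA, 0 of the 243 tested tRNA cytosines had an adjusted p under 0.05, beside 0% of all 3740 cytosines tested. At an unadjusted p under 0.05 there were 9 of the 243, beside 154 of the 3740. limma on the logit of the rates called 0 of 292 tRNA cytosines, beside 0% of all 4129, with 28 of the 292 and 487 of the 4129 at an unadjusted p under 0.05. With the reads of all preparations added up, which leaves out the spread between them, Fisher's exact test called 1 of 292 beside 1.02% of all 4129, with 11 and 292 of them at an unadjusted p under 0.05. That cytosine, named after its values were seen, was H-strand nt 3846 in mt-Tm, with 9 of 3578 native reads and 10 of 656 synthetic reads unconverted, so the native rate was the lower one.

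ESC and tissue mtDNA were compared over 3 and 4 preparations. Over the L strand of the tRNA genes ESCs averaged 5.28 ± 0.74% and tissues 5.14 ± 1.34%, a difference of 0.13 points (exact permutation test, p = 0.914). Its sign was not stable: it was -1.87 points with a minimum of 20 reads, -2.32 with 30 and -0.74 with reads pooled, and it turned negative without E2, L1 or L2. H-strand means were 0.53 ± 0.04% and 0.86 ± 0.35%, a difference of -0.33 points (exact permutation test, p = 0.229, with 0.0286 as the lowest value the design can give). Without B2 the H-strand difference was -0.18 points. edgeR's quasi-likelihood test called 0 of 225 tRNA cytosines between ESCs and tissues, beside 0% of 3486 over mtDNA, with 5 of the 225 and 90 of the 3486 at an unadjusted p under 0.05. limma and Fisher's exact test called 0 of 286, beside 0% and 0.0253% of all 3951 cytosines. Their counts at an unadjusted p under 0.05 were 8 and 9 of the 286, beside 168 and 156 of the 3951.

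mt-Tt holds the only BglII site of the sequence, at chrM:15335-15340, where native mtDNA was opened. The ends of synthetic mtDNA lie beside this site, and mt-Tp is the next gene, so PCR primer sequence in mt-Tt and mt-Tp of synthetic mtDNA is not a copy of the template. L-strand coverage of mt-Tt after 60 min was 15 to 52 reads at 12 of its 13 cytosines in L2 and 0 to 2 reads in the other 7 libraries. Its L-strand rate in L2 was 0.69%. On the H strand, nt 15336 inside the cut site was covered by 216 reads in L2 and by 4 to 18 in the other native libraries. L2 thus differed from them in reads at the cut site, and whether reads ran across the cut was not tested. S1 had 3 reads at nt 15336, although synthetic mtDNA as the paper describes it does not contain this position. H-strand rates of mt-Tt were 0.28% in E1, 0% in E2, 1.28% in E3, 0.20% in B1, 1.30% in B2, 0.30% in L1, 0.45% in L2 and 0.31% in S1, and B2 had a single covered cytosine there. mt-Tp had 0.35% in E1, 0.37% in E2, 0.83% in E3, 0.70% in B1, 0.29% in B2, 0.81% in L1, 0.37% in L2 and 0.31% in S1. S1 lay within the native range in both genes, and without both genes the L-strand difference between tRNA genes and the rest of mtDNA kept its sign and passed the test.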

How the data were processed

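The 24 PBAT libraries were run on a MiSeq. The authors trimmed reads with Trim Galore and mapped first reads to mouse mtDNA (mm10) with Bismark (versions not given in the sources used here). The authors deposited, per cytosine and library, the percent of reads unconverted, not corrected for incomplete conversion, and the count of reads covering it. Total counts were 257028 to 2260570 calls per library, and no pair of libraries held identical coverage. The authors left reads that were nearly all unconverted out of their rates and analysed them separately. The deposited values appear to include these reads, and so do the rates given here.

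The number of unconverted reads was the product of percent and coverage, rounded to a whole number. Rates needed 10 reads. The preparation was the replicate: differences within a preparation were tested with exact two-sided sign-flip permutation tests, groups with exact permutation tests (SciPy 1.17.1), with Benjamini-Hochberg adjustment over the 6 comparisons with protein genes, rRNA genes and control region. Single cytosines were tested with edgeR 4.0.16 on unconverted and converted reads, with limma 3.58.1 and Fisher's exact test as alternatives, on scripts checked with simulated data. Intervals and the limit of 3 reads cover counting error only, since PBAT reads carry no molecular identifiers. Values per preparation were given for the 5 highest and 5 lowest genes on the L strand, the 3 highest on the H strand, any gene with all native preparations above synthetic mtDNA on both strands (none), mt-Tt and mt-Tp, cytosines called by edgeR (none) and the 3 highest H-strand cytosines covered in all 8. Alternatives were the coverage minimum, pooled reads, cytosines covered in all libraries, cytosines of 50% or more in synthetic mtDNA left out, each preparation left out, mt-Tt and mt-Tp left out, and 40 min. Pooling counts a read at each cytosine it covers. The members and lists were chosen with earlier results of these data known.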

Additional observations from a re-analysis of the deposited data

Results flagged for a closer look

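A library stood apart from the others of its kind in 12 of 51 such tests of groups of 4 to 7 native libraries (Dixon's criterion). Chance meets this criterion in about 1 in 20 tests of independent, normally distributed values. Many rates here lie near 0 and the tests share libraries, so the 12 cannot be set against that share. B2, the shallowest 60 min library, accounted for 8 of them. On the H strand it had 1.09% in mt-Tn, 1.08% in mt-Th, 2.66% in mt-Ts2 and 3.39% in mt-Tl2, above the highest other native values of 0.42, 0.49, 0.66 and 0.66%. On the L strand B2 had 0.80% in mt-Tv, against 0.34% at most in the other native libraries, but this was 1 of 172 calls summed over the cytosines of the gene. Its difference between tRNA genes and the rest of the L strand was -35.5 points, that to protein genes -44.7 points and that between L-sense and H-sense genes -14.3 points. Of the other libraries, E1 after 15 min had an H-strand mean of 11.6% over the tRNA genes, and 10.4% over the rest of that strand, where the other native libraries had 3.35 to 3.54%. E1 after 60 min had 2.20% in mt-Tg on the L strand (0.70% with calls summed over its cytosines). L2 had 0.29% in mt-Tw on the L strand, from 1 of 400 calls, and E2 had 3.96% in mt-Tv on the H strand.

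The 90 min library of E3 entered no comparison, as the only one of its duration. Its tRNA genes had 8.84% on the L strand over 47 covered cytosines, and 1.93% on the H strand over 158, beside 4.74% and 0.56% in the same preparation after 60 min.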

How the results depend on the processing

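Of 295 values from 19 results under other settings, 232 kept direction and call, 32 lost the call, 3 gained it, 27 changed sign and 1 count moved. Unless a value or the setting itself shows it, the cause was not tested. With 20 reads required, the L-strand differences were 0.78 points to rRNA genes, -4.37 to the control region, 4.64 for CG against CH, 0.72 for native against synthetic and -1.87 for ESC against tissue, and on the H strand 0.18 to the control region and -0.0381 for sense. With 30 reads they were 1.97, -1.74, 9.08, 0.67, -2.32, 0.14 and -0.0909, and -17.1 for sense on the L strand. With reads pooled they were 0.29 to rRNA genes, 2.94 for CG against CH, 0.14 for native against synthetic and -0.74 for ESC against tissue (L strand), and 0.10 to protein genes, 0.0028 to the control region and -0.0475 for sense (H strand). Over cytosines covered in all 8 libraries the values were -1.79 to rRNA genes, -4.69 for CG against CH and 0.16 for native against synthetic on the L strand, and -0.0233 for sense on the H strand. Without cytosines of 50% or more in synthetic mtDNA, the L strand gave -2.003 to the control region, 3.30 for sense, 1.34 for CG against CH and 0.19 for native against synthetic. Without mt-Tt and mt-Tp, the H strand gave 0.25 to the control region and -0.0162 for sense.

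At 40 min, where 5 preparations cannot give a p under 0.0625, the L-strand differences were -26.2 to the rest of mtDNA, -32.6 to protein genes, -14.7 to the control region and -4.12 for sense, the H-strand ones were 0.18 to protein genes, -0.51 to rRNA genes, 0.28 to the control region and -0.41 for CG against CH, and L minus H was 3.97. In settings chosen after seeing the data, removing mt-Te gave -3.61 to rRNA genes and 3.47 for sense on the L strand, and removing nt 5050 gave 0.18 to the control region on the H strand. Fisher's exact test called 1 cytosine between native and synthetic mtDNA, where edgeR called 0.

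With each preparation left out, sense on the L strand ran from -4.52 to -2.09 (call lost in 7 of 8) and the H-strand difference to the control region from 0.14 to 0.28 (lost in 6 of 8). Sense on the H strand ran from -0.0418 to 0.0588, with -0.0397 without E2 and -0.0418 without B2. ESC against tissue on the L strand ran from -0.29 to 0.77, with -0.29 without E2, -0.13 without L1 and -0.22 without L2.

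Same-numbered ESC, brain and liver preparations correlated between -0.21 and 0.11 over 200 tRNA cytosines and between -0.18 and 0.19 over 2902 of all mtDNA. Not every pair was above 0.1 (the 2 brain-liver pairs give 1 value by construction, with 2 preparations each). With so few preparations, these values cannot tell whether same-numbered preparations share more than a number. With the replicate block, the difference of ESC and tissue was 0.41 points (L strand) and -0.34 points (H strand), and edgeR called 0 cytosines.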
